A study of Homo sapiens with 2 samples.

Results

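The 3 D-type cyclin genes (CCND1, CCND2 and CCND3), MYC and the AP-1 genes JUN and FOSL1 are growth-linked targets of Wnt signalling, and they were chosen by symbol as 6 of the 113 pathway genes on the array. One line was SW480, a human colorectal adenocarcinoma cell line, with overexpression of hiNOS (an inducible nitric oxide synthase) together with green fluorescent protein (GFP). Its control was SW480 with the empty vector, which carried GFP only. Per the labels, both were stable lines sorted on GFP and grown for weeks before RNA extraction. Each line was measured on 1 array, whether a line was a single clone is not given in the sources used here, and the array held no gene that marks SW480 cells or encodes the synthase. No value below has a replicate, so no difference was tested, and fewer cells expressing a gene cannot be told apart from less RNA per cell.

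In Wnt signalling, beta-catenin that escapes degradation enters the nucleus and activates transcription with TCF/LEF factors. SW480 carries a truncated APC and is known for constitutively active beta-catenin. Cyclins D1, D2 and D3 bind the kinases CDK4 and CDK6, which phosphorylate the retinoblastoma protein and move a cell from G1 phase towards DNA synthesis. MYC is a transcription factor that drives growth and division. JUN and FOSL1 (FRA-1) are leucine-zipper proteins, and a JUN family member can pair with a FOS family member to form an AP-1 dimer, among other pairings.

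The 6 genes did not differ alike between the 2 arrays. MYC was lower on the hiNOS array and CCND2 was higher there. JUN was lower by a smaller factor. CCND1, CCND3 and FOSL1 gave spots close to the brightest on both arrays, with ratios near 1. The measured value is the average density of a spot in scanner units, which includes background. The 2 blank spots averaged 12336 units on the hiNOS array and 12750 on the GFP array, and the biotinylated positive control averaged 49565 and 50047 units on the same arrays. For the ratios below, the blank mean was taken off and each array was scaled to its 3 spots of GAPDH and ACTB, and the ratio of plain densities, which background pulls towards 1, is given beside them.

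**Figure D1:**
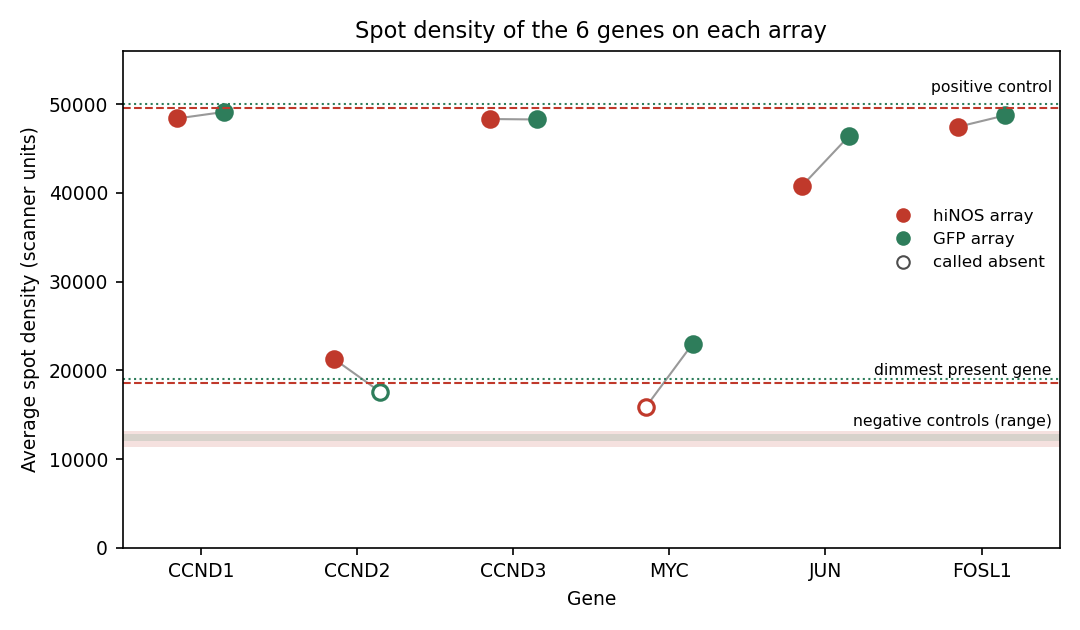
Average spot density (scanner units) of the 6 genes, with the hiNOS array left of the GFP array for each gene. Open circles were called absent by the authors' software, dashed (hiNOS) and dotted (GFP) lines mark the positive control and the dimmest present gene, and bands mark the range of the 6 negative-control spots. CCND1, CCND3 and FOSL1 lie just under the positive control on both arrays, and CCND2 and MYC each lie under the dimmest present gene on 1 array.

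CCND1, which encodes cyclin D1, had a density of 48373 units on the hiNOS array and 49108 on the GFP array. These were 97.6% and 98.1% of the positive control on the same arrays, and CCND1 was the gene of rank 6 and rank 4 by density among 113. The authors' software called the spot bleeding on both arrays, meaning that it was bright and within 30% of its own local background. After blank subtraction the log2 ratio was -0.02, and it turned to 0.06 on the scale of the deposited values.

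CCND3, which encodes cyclin D3, had 48309 units on the hiNOS array and 48259 on the GFP array, a difference of 49.97 units. That was 97.5% and 96.4% of the positive control. The spot was not called bleeding on either array. Its log2 ratio was 0.01, and it turned to -0.15 when the median gene set the scale.

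CCND2, which encodes cyclin D2, was the dim member of the family. Its density was 21317 units on the hiNOS array, where it was called present, and 17562 on the GFP array, where it was called absent. Both values lay above the brightest negative control, which was 13214 units on the hiNOS array and 12779 on the GFP array. Above the blanks the signal was 8981 units with hiNOS and 4812 with GFP. The measured ratio was 1.86-fold higher with hiNOS (log2 0.89) and ranked 7 from the highest among the 59 genes present on at least 1 array. CCND2 was among these 59 only through its hiNOS call, so the rank is no separate support for the rise. By plain density it was 1.22-fold higher. Because the GFP spot was absent, the dimmest present gene of that array (TLE1, at 18982 units) sets a bound on the fold that varies with the background removed. The bound was 1.43-fold higher after blank subtraction, between 1.257-fold and 1.502-fold with a single negative-control spot as background, and 1.13-fold by plain density.

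Taken within each array, the D cyclins differed in how far their spots lay above background. Relative to GAPDH and ACTB after blank subtraction, CCND1 stood at 0.989 with hiNOS and 1.00 with GFP. CCND3 stood at 0.987 and 0.979 on the same arrays, and CCND2 at 0.246 and 0.133. The signal of the CCND2 probe was therefore 0.249 of the CCND1 probe's on the hiNOS array and 0.132 on the GFP array. These are signals of different probes and give no ratio of transcripts, but the change in that ratio does not depend on a scaling factor. CCND2 differed from CCND1 by 0.91 and from CCND3 by 0.88 in log2 ratio after blank subtraction, and by 0.54 and 0.51 with CCND2 at its bound. By plain density the differences were 0.30 and 0.28. CCND1 and CCND3 differed from each other by -0.03. Whether spots as bright as CCND1 and CCND3 could register a difference was not tested, so none of these values is a minimum.

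MYC had the largest difference in density of the 6 genes. Its density was 15870 units on the hiNOS array, where it was called absent, and 23002 on the GFP array, where it was called present. The absent spot still lay above every negative control of its array. Above the blanks the signal was 3534 units with hiNOS and 10251 with GFP, a measured ratio of 0.343, or 2.92-fold lower with hiNOS (log2 -1.54). By plain density MYC was 1.44-fold lower. The dimmest present gene of the hiNOS array (CSNK1G1, at 18525 units) sets its bound, which was 1.66-fold lower after blank subtraction, between 1.54-fold and 1.95-fold with a single negative-control spot as background, and 1.24-fold by plain density. MYC was the only one of the 6 listed past 2-fold in the authors' deposited table, which was computed from the same arrays. That listing gives MYC 0.363 for hiNOS over GFP and marks it absent on at least 1 array. Of the 113 genes it holds 23 as under-expressed, MYC among them, and 16 as over-expressed, with 0 of the 6.

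The blanks weigh on a gene this dim. The pair of blank spots lay 1256 units apart on the hiNOS array and 57.1 apart on the GFP array. With each of the 6 negative-control spots in turn as the background, the log2 ratio of MYC ran from -1.96 to -1.30 and that of CCND2 from 0.68 to 0.96. MYC was lower and CCND2 higher under all 20 treatments of background and scale that were computed. These treatments rework the same pair of densities for each gene, so the shared sign is not independent support. MYC passed 2-fold in 19 of them, all but the one with no background subtracted, and CCND2 in 1.

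By a rule of 2-fold after blank subtraction, 0 of the 6 genes were higher with hiNOS, where 6 of the 59 genes present on at least 1 array were (10.2%). MYC alone of the 6 was 2-fold lower, where 11 of the 59 genes were (18.6%). Among the 59, 14 genes were present on 1 array only, CCND2 and MYC among them. Their calls fix their direction, 6 higher and 8 lower. Of the 45 genes present on both arrays, 2 were 2-fold higher and 3 lower. When every gene absent on a single array was set to its bound, 0 of the 6 passed in either direction, where 3 of 59 were higher (5.08%) and 6 of 59 lower (10.2%). By plain density 0 of the 59 genes passed in either direction (0%). The median log2 ratio of the 6 genes was -0.03, and that of the 59 genes was -0.01.

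JUN, the common partner in AP-1 dimers, had 40784 units on the hiNOS array and 46381 on the GFP array. These were 82.3% and 92.7% of the positive control. The spot was called present and not bleeding on both arrays. After blank subtraction JUN was 1.19-fold lower with hiNOS (log2 -0.25), and by plain density 1.13-fold lower. Among the 45 genes present on both arrays its log2 ratio ranked 8 from the lowest, and 5 of the 45, JUN with APC2, CSNK1A1, WNT3 and DKK4, had a fall in density at least as large. The log2 ratio of JUN stayed below 0 in all 20 treatments of its same pair of densities, between -0.41 and -0.17. At 92.7% of the positive control the GFP spot was itself near the top of the range, and a ceiling there would make the fold a lower bound.

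FOSL1 had 47438 units on the hiNOS array and 48716 on the GFP array, or 95.7% and 97.3% of the positive control. The spot was called bleeding on the hiNOS array only. Its log2 ratio was -0.04, and it turned to 0.04 on the deposited scale. Within the AP-1 pair, the JUN probe gave 0.810 of the FOSL1 probe's signal on the hiNOS array and 0.935 on the GFP array, a difference in log2 ratio of -0.21 (-0.15 by plain density). These too are signals of different probes and give no ratio of transcripts. With FOSL1 near the ceiling on both arrays, and JUN near it with GFP, the part of a ceiling in this difference was not tested.

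JUN is also the gene of the pair whose promoter sequence was at hand. The JUN promoter is known to carry a pair of AP-1-like sites that JUN-containing dimers bind, so the gene's own product can act on it. Whether these sites bear on the lower JUN signal was not tested. The 250 bases before the RefSeq start (GRCh38.p14, chr1:58784048-58784297, minus strand) are shown 5′ to 3′, with the distal site and then the proximal site in capitals.
JUN: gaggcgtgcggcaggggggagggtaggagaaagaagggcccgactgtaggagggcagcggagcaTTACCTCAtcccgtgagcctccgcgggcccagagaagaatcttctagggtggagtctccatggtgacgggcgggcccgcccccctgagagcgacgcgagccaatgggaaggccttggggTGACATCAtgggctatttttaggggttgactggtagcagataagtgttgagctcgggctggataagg

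The distal match, TTACCTCA, covers bases 186 to 179 before the start, and the proximal match, TGACATCA, covers bases 67 to 60. The letters searched were those of the known JUN sites, so finding them in this promoter was no test. Searched on both strands, the distal letters were found in 0.644% and the proximal letters in 2.37% of the 35116 promoters of the same length in the table. These shares describe only how common the letters are. The consensus AP-1 letters TGANTCA (6.57% of promoters), the TCF/LEF letters CTTTGAA (3.80%) and CTTTGAT (2.26%) and the E-box CACGTG (6.34%) were not in this window. These motifs do not overlap one another there. A match describes the letters only, and binding was not measured. CCND3 had 3 promoters in the table, and none held any of the 6 motifs. CCND1, CCND2, MYC and FOSL1 are named without a promoter.

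Duplicate spots on the same membrane give a sense of scale for these differences, but only at the top and at the floor of the density range. HSPCB, ACTB and the positive control were each spotted in duplicate, and their gaps within an array ran from 399.8 to 835.3 units over 6 pairs. With the blanks, the widest of 8 gaps was 1256 units, on the hiNOS array. MYC (-7132 units), JUN (-5597) and CCND2 (3755) differed between the arrays by more than every such gap. FOSL1 (-1278) lay just beyond the widest. CCND1 (-735.3) and CCND3 (49.97) lay within it. In all 4 of the 6 genes exceeded the widest gap, as did 39 of the 59 genes present on at least 1 array (66.1%). The share among the 6 was thus close to that of these 59 genes. Over all 113 pathway genes, 50 exceeded the widest gap (44.2%). Duplicate spots share 1 RNA and 1 membrane, and their gap is not replicate error between cultures or arrays. The bright pairs lay at 48173 to 50465 units and the blanks at 11708 to 12964. MYC, CCND2 and JUN lay between these, at densities that no duplicate pair covered, so the gaps do not give the spread of spots like theirs.

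**Figure D2:**
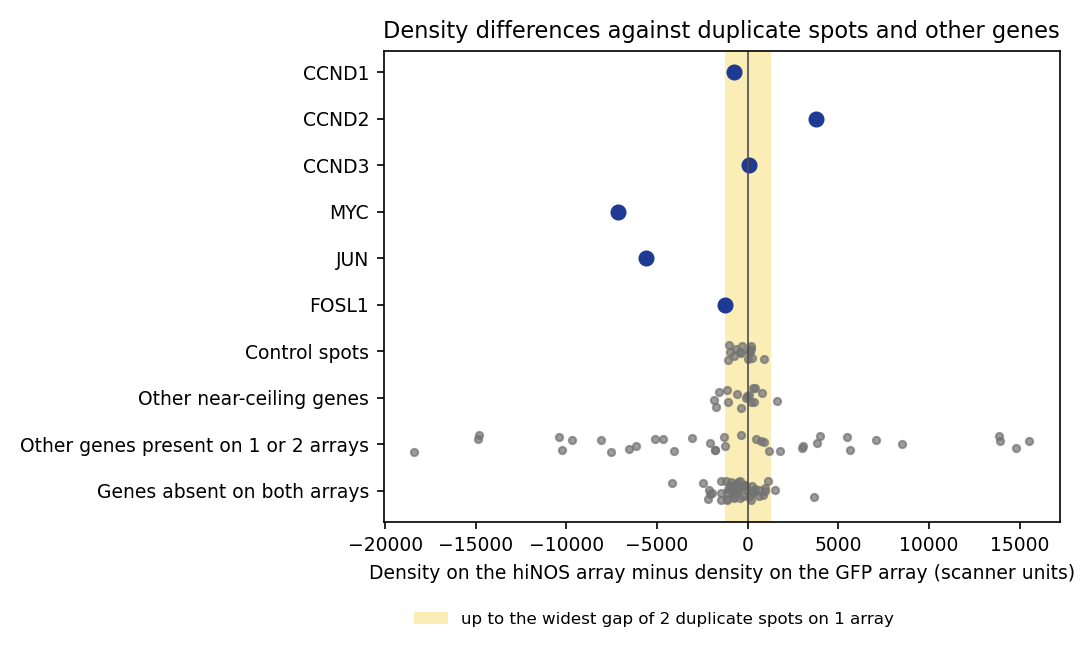
Density on the hiNOS array minus density on the GFP array (scanner units), 1 point per gene or control spot, with the shaded band reaching to the widest gap between duplicate spots of 1 array (1256 units). MYC and JUN lie left of the band and CCND2 right of it, CCND1 and CCND3 lie inside it, and other genes reach further in both directions. No duplicate pair lay at the densities of MYC, CCND2 or JUN.

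Differences were also listed for the bright and the dim genes. Both classes were defined by the spot values on both arrays, which caps the difference a gene in them can have. Their ranges therefore give no measure of how much an unselected gene varies. The 19 genes at or above 90% of the positive control on both arrays, CCND1, CCND3 and FOSL1 among them, differed by -1885 to 1628 units, and 5 of them (FOSL1, PYGO2, WNT5B, WNT6 and WNT8B) passed the widest duplicate gap. Over these 19 the log2 ratio after blank subtraction ran from -0.07 to 0.08. FOSL1 ranked 4 from the lowest difference among the 19, CCND1 ranked 7 and CCND3 ranked 12. At the dim end, the 54 genes absent on both arrays differed by -4169 to 3648 units. The difference of 1 of those 54 genes, FRAT2, was larger in size than that of CCND2, and 0 were larger than that of JUN. Genes named here beyond the 6, as those with falls as large as JUN's, were picked out after their values were seen. Over all 113 genes MYC had the fall of rank 9, JUN the fall of rank 12 and CCND2 the rise of rank 11.

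**Figure D3:**
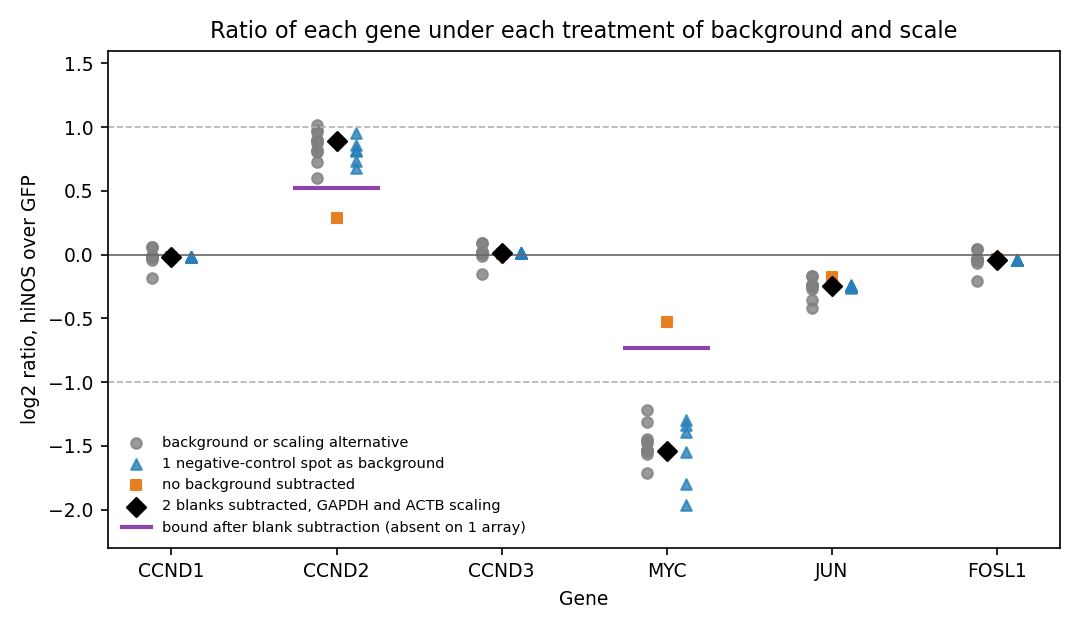
log2 ratio of hiNOS over GFP for each of the 6 genes under 20 treatments of background and scale, with dashed lines at 2-fold in each direction. Black diamonds are the ratios after blank subtraction (MYC -1.54, CCND2 0.89, JUN -0.25), purple bars the bounds after blank subtraction for genes absent on 1 array (MYC -0.74, CCND2 0.52), and orange squares plain density. CCND1, CCND3 and FOSL1 lie on either side of 0 depending on the scale.

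The choice of scale changed the sign for CCND1, CCND3 and FOSL1, and not for MYC, CCND2 and JUN. CCND1 and FOSL1 were below 0 in 18 and CCND3 above 0 in 18 of the 20 treatments. Scaling by the median gene shifted the median of the 59 genes by -0.17 on the log2 scale, and the scale of the deposited values shifted it by 0.08. These shifts were larger than the ratios of CCND1, CCND3 and FOSL1, for which no direction is given. On the authors' deposited normalized values CCND2 had 1.15 with hiNOS and 0.59 with GFP, MYC had 0.45 and 1.25, and JUN had 3.65 and 4.10, each on the same 2 arrays.

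Other Wnt target genes gave little to set beside the 6. Of 28 further targets listed, 14 were on the array, and 3 of these were present on at least 1 array. NKD1, a Dishevelled-binding feedback antagonist, was 2.07-fold higher with hiNOS (41641 units, against 26857 with GFP), 1 of 3 past 2-fold higher and 0 of 3 lower, where 10.2% and 18.6% of the 59 genes were. By plain density NKD1 was 1.56-fold higher, and it no longer passed 2-fold there, with the lowest spot subtracted or with the median gene as the scale. AXIN2, a scaffold of the destruction complex and a feedback target, had 46845 units with hiNOS and 47923 with GFP and a log2 ratio of -0.03. TCF7, a TCF/LEF factor gene, had 22759 and 21845 units on the same arrays and a log2 ratio of 0.19. The other 11 were absent on both arrays, at 10701 to 16577 units with hiNOS and 10701 to 17076 with GFP. The median log2 ratio of the 3 present targets was 0.19, which is the value of TCF7, against -0.01 over the 59 genes.

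The genes most like each of the 6 were taken by distance over the 2 scaled log2 values among 53 other present genes. For MYC they were the ligand gene WNT5A (15127 units with hiNOS, against 25564 with GFP) at a distance of 0.47 and the secreted antagonist gene FRZB (14870, against 22395) at 0.49. Both were called absent with hiNOS and present with GFP, as MYC was. For CCND2 they were CTNNB1, which encodes beta-catenin (22673 units with hiNOS, against 17226 with GFP), at 0.23 and the receptor gene FZD10 (20017, against 16948) at 0.30. Both were present with hiNOS and absent with GFP, as CCND2 was. JUN lay at 0.19 from WNT16 and 0.29 from AXIN2, whose log2 ratios were -0.01 and -0.03, so neither showed its difference. AXIN2 was near the ceiling on both arrays, and whether its spot could register a difference was not tested. CCND1 was nearest to DVL3 and SLC9A3R1, CCND3 to CSNK1G2 and GSK3A, and FOSL1 to WNT5B and DKK3, all at distances of 0.01 to 0.02 and all near the ceiling. These distances rest on 2 arrays and describe spot values only. Because the genes were picked on the same values that set the calls, the calls shared with MYC and CCND2 follow largely from the selection.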

How the data were processed

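Per the labels' protocols, total RNA was reverse-transcribed from oligo-dT primers and made into biotin-labelled cRNA, and per the series text GEArray Expression Analysis Suite 2.0 read the scanned arrays. The authors deposited an intensity for 128 spots, their averaged density, from which no background was taken, as the blanks show. All 256 densities were whole multiples of 1 part in 36 of a unit. A deposited table of normalized intensity was recomputed from density less the mean of blank positions 116 and 117, over the mean of the middle 50% of spots, to within 0.00499. It is linear, not centred and of settled direction, and its medians were 0.50 for hiNOS and 0.54 for GFP. The authors' deposited table beyond 2-fold gives the hiNOS value over the GFP value after the same steps, and was treated as a score because spots under the blanks make some values negative. Per the file headers, the absent call applies below 1.5 times a local background averaged over the lower 75 percentile of non-bleeding spots.

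Here density less the blank mean was divided by that of GAPDH and ACTB, following the series text for the scaling. A gene absent on 1 array also received a bound, in which its dim value is replaced by the lowest present gene of that array where that is higher. RefSeq accessions in the files matched 6 of 6 genes, and promoters came from the RefSeq table of GRCh38.p14. All 6 genes are named, with the other listed Wnt targets present on at least 1 array and the 2 genes nearest to each member. The members, the target list and the settings were chosen with earlier results of these data known. Arrays named by the series text beyond these 2 were not analysed here. Probe sequences were not used here, so cross-hybridisation between the D cyclins was not tested. Alternatives covered background, scaling (with limma 3.58.1 for normexp, offset 50), filters and the size rule. Python 3.11.15 and pandas 2.3.3 were used, and the calculation of ratios was tested on simulated data. The simulation had no ceiling, called every gene present and had less noise than the negative controls. It did not cover the bounds or the bright spots. The number of arrays limits the precision.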

Additional observations from a re-analysis of the deposited data

How the results depend on the processing

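No paired analysis was possible because only 1 array stands for each line, and for the same reason no replicate could be left out. The use of each negative-control spot in turn as background, and the bounds under other backgrounds, were chosen after the data were seen. The count of the 6 genes 2-fold higher was 0 and became 1 (CCND2) with quantile normalization and with a 1.5-fold rule. The count 2-fold lower was 1 (MYC) and became 0 with no background subtracted, with lower bounds and with genes present on both arrays only, where MYC is left out by construction. Of the other Wnt targets, 1 was 2-fold higher, with 0 under no background subtraction, under the lowest spot subtracted and under the median gene. Without a filter on absent calls 2 were higher and 3 lower, where 0 had been lower. The log2 difference of CCND2 against the mean of CCND1 and CCND3 was 0.90. It was 0.29 with no background subtracted, 0.61 with the lowest spot, 0.81 with normexp, 1.02 with quantile normalization, and 0.68 and 0.74 with the artificial-sequence spots at positions 118 and 120 as background. The difference of JUN against FOSL1 was -0.21, and -0.32 with quantile normalization. Over the 59 genes the counts were 6 higher and 11 lower, but 0 and 0 with no background subtracted, 2 and 10 with the lowest spot, 3 and 11 with the median gene, 9 and 9 with quantile normalization, 10 and 12 with a 1.5-fold rule, 3 and 6 with lower bounds, and 3 and 11 with the spot at position 118. Over other sets of genes they were 2 and 3 of the 45 present on both arrays, and 10 and 15 of all 113 without a filter. Background left in the density compresses a ratio by construction. For the other changes the cause was not tested. The log2 ratios of MYC, CCND2 and JUN kept their sign in all 20 treatments of background and scale, which rework the same pair of densities per gene. Signal over background limits MYC and CCND2, and any ceiling of the scan limits CCND1, CCND3, FOSL1 and JUN.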
